A study of Mus musculus with 7 samples.

Results

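Globin transcripts were described in livers of newborn mice with and without glycerol kinase. The set comprised the embryonic chains Hba-x, Hbb-bh1 and Hbb-y, the adult chains Hba-a1 and Hbb-b1, and Ahsp, the chaperone of free alpha chains. A probe set was taken as a member when its platform annotation named one of these 6 genes. This gave 12 probe sets for 5 of the 6 genes, out of 19324 genes that the annotation named. Ahsp was not analysed here, since no probe set carried its symbol. Male C57BL/6J pups were compared on day of life 1, as 4 glycerol kinase knockout mice and 3 wild type littermates of knockout mice, with 1 Affymetrix array per liver. Pups had received no treatment named in the labels, and the submitters chose this age as one before the deficiency shows. The kind of knockout allele and the litters were not given in the sources used here, and the glycerol kinase transcript itself was not analysed here.

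Hemoglobin is built from alpha-like and beta-like chains that change with age. Primitive red cells, formed in the yolk sac, use the embryonic chains: zeta from Hba-x, and epsilon-y and beta-h1 from Hbb-y and Hbb-bh1. Definitive red cells, formed in the fetal liver, use the adult chains, and the liver of a newborn mouse still holds precursors of that lineage. The alpha-like genes neighbour each other on chromosome 11 and the beta-like genes on chromosome 7.

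Sequences just before the start of 4 globin genes are shown because Hba-x and Hbb-y, on different chromosomes, had similar patterns over the arrays, beside an adult gene of each cluster. Promoters were held for 4 of 7 genes looked for, in the RefSeq table of build GRCm38.p6. Hbb-bs stands for the adult beta chain, since C57BL/6J mice carry Hbb-bs and Hbb-bt in place of Hbb-b1 and Hbb-b2. Each line gives the 150 bases before the transcription start, 5′ to 3′ on the gene's strand, and capitals mark matches, sought on both strands, to the 5 motifs spelled out after the sequences.
Hba-x, embryonic alpha-like (chr11:32276450-32276599, plus strand): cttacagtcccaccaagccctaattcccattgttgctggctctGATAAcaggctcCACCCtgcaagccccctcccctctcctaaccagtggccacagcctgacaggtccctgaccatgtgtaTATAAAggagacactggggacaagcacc
Hbb-y, embryonic beta-like (chr7:103853208-103853357, minus strand): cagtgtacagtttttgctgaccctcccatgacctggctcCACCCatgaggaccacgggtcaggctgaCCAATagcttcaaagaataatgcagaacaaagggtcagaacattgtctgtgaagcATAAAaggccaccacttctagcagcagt
Hba-a1, adult alpha (chr11:32283522-32283671, plus strand): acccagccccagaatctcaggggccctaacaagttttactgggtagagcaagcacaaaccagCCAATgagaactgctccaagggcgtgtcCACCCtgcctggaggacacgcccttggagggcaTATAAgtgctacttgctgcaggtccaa
Hbb-bs, adult beta (chr7:103827929-103828078, minus strand): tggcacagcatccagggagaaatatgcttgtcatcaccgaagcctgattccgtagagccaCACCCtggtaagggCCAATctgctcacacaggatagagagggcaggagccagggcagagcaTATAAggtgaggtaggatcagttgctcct
All 4 windows held CACCC, the core letters bound by Klf1, and 37.4% of 32851 promoter windows of this length did so on either strand. CCAAT was in Hbb-y, Hba-a1 and Hbb-bs and in 24.5% of all windows. GATAA, letters recognised by Gata1, was in Hba-x alone of the 4 and in 13.3% of all windows. TATAA was in Hba-x, Hba-a1 and Hbb-bs (14.2% of all windows) and ATAAA in Hba-x and Hbb-y (24.1%), and both overlapped in Hba-x. These are matches of letters and describe no measured binding.

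Values are the deposited intensities, in arbitrary units, log2 fold changes were taken after adding 16, and a liver set against other livers is given as a plain ratio of intensities unless stated. The 7 arrays had median log2 levels between 6.76 and 6.95, and the median correlation of an array with the others ran from 0.948 to 0.961 over tested probe sets. No pair of arrays held identical values. Of the 12 member probe sets, 9 passed the filter on dim values and were tested among 22518 probe sets with limma, and 3 did not pass it. Precision is limited by how few arrays there were.

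Embryonic chains were lower on average in knockout livers, and the size of the difference depended on wild type 1. Without that liver the log2 difference was smaller in all 7 probe sets, at -1.45 to -0.12 against -2.48 to -0.58. No globin probe set passed limma's adjusted p of 0.05, where 4.24% of all tested probe sets did (2.35% higher and 1.89% lower in knockout). At an unadjusted p under 0.05 there were 6 of 9 tested probe sets, 5 lower and 1 higher in knockout, against 21.7% of all tested (11.8% lower and 9.97% higher). That count was 1 of 7 tested without wild type 1 and 3 of 9 without knockout 3. Of the 9, 1 probe set of Hbb-y (1450621_a_at) and 1 of Hbb-bh1 (1437810_a_at) passed the filter through wild type 1 and did not pass it without that liver. In whole liver, fewer cells of a type and less RNA per cell cannot be told apart.

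**Figure D1:**
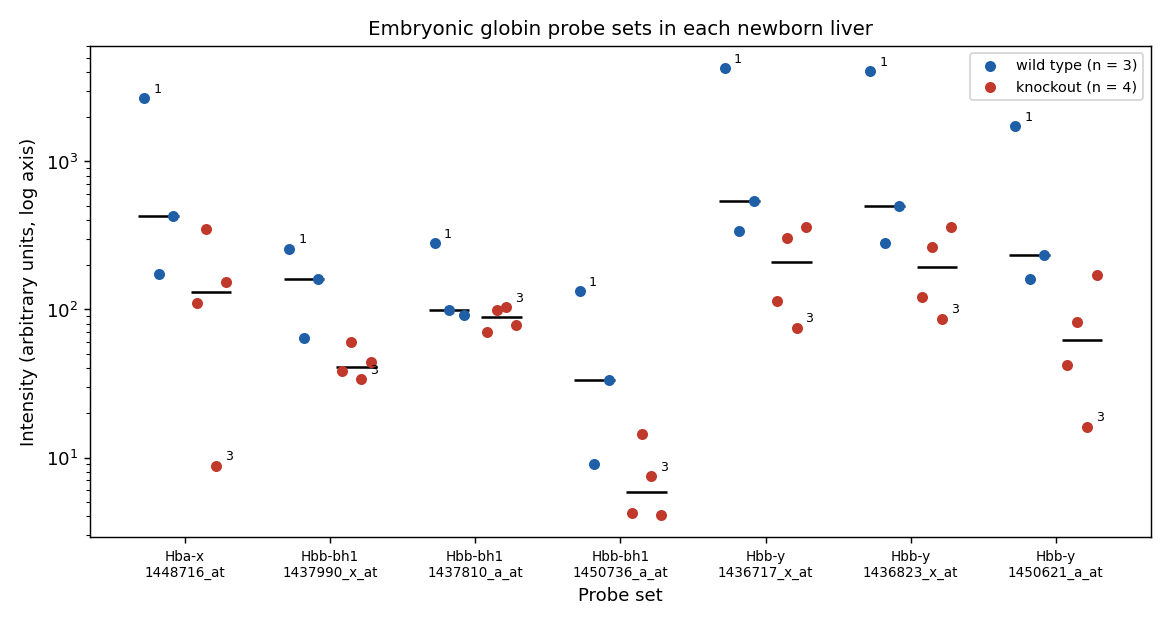
Intensity (log axis) of the 7 embryonic globin probe sets in each liver, wild type in blue and knockout in red, with bars at group medians and the numbers 1 and 3 marking wild type 1 and knockout 3. Wild type 1 was highest in all 7 probe sets, at 4262 for the brightest Hbb-y probe set against 75.4 to 544.0 in the other livers.

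Hba-x encodes the zeta chain, the alpha-like chain of embryonic hemoglobin, and had 1 probe set (1448716_at). Its intensity was 2673 in wild type 1, 174.5 in wild type 2 and 425.9 in wild type 3. In knockout livers it was 110.4, 347.4, 8.8 and 153.2 in numbers 1 to 4. Wild type 1 stood 6.28-fold above the next highest liver, knockout 3 was lowest, and knockout 2 lay between wild type 2 and wild type 3, so the groups overlapped. The log2 fold change was -2.37 ± 0.96 (SE, 95% interval -4.50 to -0.25, adjusted p = 0.184), a 5.17-fold lower mean on that scale. Without wild type 1 it was -1.30 (adjusted p = 0.479).

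Hbb-y encodes epsilon-y, an early beta-like chain, and its 3 probe sets put the 7 livers in the same order. The brightest (1436717_x_at) was at 4262, 336.6 and 544.0 in wild type 1 to 3. In knockout 1 to 4 it was at 113.5, 304.7, 75.4 and 361.0. Wild type 1 stood 7.83-fold above the next liver, and 3 of 4 knockout livers lay below every wild type liver, with knockout 4 just above wild type 2. Its log2 fold change was -2.28 ± 0.78 (95% interval -4.01 to -0.55, adjusted p = 0.126), or -1.19 without wild type 1 (adjusted p = 0.295).

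The second Hbb-y probe set (1436823_x_at) read 4085, 283.2 and 496.9 in wild type and 121.7, 264.5, 86.8 and 358.9 in knockout livers. Knockout differed from wild type by -2.13 ± 0.78 on the log2 scale (adjusted p = 0.149), or by -0.996 without wild type 1 (adjusted p = 0.335). The third (1450621_a_at) read 1736, 159.8 and 232.8 in wild type and 42.1, 81.7, 16.1 and 170.8 in knockout livers. Here the log2 difference was -2.48 ± 0.77 (adjusted p = 0.1003). Without wild type 1 its difference was -1.45, untested because the probe set then fell below the filter. All 3 probe sets thus kept a lower knockout mean in that setting, at a smaller size.

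Hbb-bh1 encodes beta-h1, the other embryonic beta-like chain, and its 3 probe sets were dimmer and less alike. The one tested (1437810_a_at) read 279.8, 99.0 and 92.1 in wild type and 70.3, 99.7, 103.7 and 78.0 in knockout livers. Apart from wild type 1 the groups overlapped fully. Its log2 fold change was -0.58 ± 0.34 (95% interval -1.34 to 0.17, adjusted p = 0.352), and the untested difference without wild type 1 was -0.12. A second (1437990_x_at) read 257.5, 64.6 and 159.9 in wild type and 38.5, 60.7, 33.8 and 43.9 in knockout livers. There every knockout liver lay below every wild type liver, though the closest values were 60.7 and 64.6. Of all tested probe sets, 11.8% were likewise lower without overlap, and 21.1% did not overlap in either direction. The difference for 1437990_x_at was -1.40, or -1.003 without wild type 1. The third (1450736_a_at) overlapped between groups and read 132.5, 9.1 and 33.2 in wild type and 4.2, 14.5, 7.5 and 4.1 in knockout livers. Both of these fell below the filter and were not tested, and most of their values sat in the range where noise weighs most.

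Wild type 1 was the highest liver for all 7 embryonic probe sets. Of the 22518 tested probe sets, 4 were at least 4-fold brighter in wild type 1 than in any other liver (after adding 16 to each intensity), and all 4 were embryonic globins, namely the 3 of Hbb-y, of which 1 passed the filter through that liver, and that of Hba-x. The same count was 0 for wild type 2 and knockout 4, 1 each for wild type 3, knockout 1 and knockout 2, and 10 for knockout 3, with no globin among them. For the brightest Hbb-y probe set, wild type 1 was 9.68-fold above the mean of the other wild type livers.

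Hba-x and Hbb-y varied together over the livers, also outside wild type 1. Pearson's r of log2 levels between Hba-x and the brightest Hbb-y probe set was 0.94 over 7 livers and 0.88 over the 6 without wild type 1. Between Hba-x and the dim Hbb-bh1 probe set 1437990_x_at it was 0.88, and 0.73 without wild type 1. The tested Hbb-bh1 probe set did not follow them, at 0.83 with the brightest Hbb-y probe set over 7 livers and 0.06 without wild type 1. These are descriptions over few points, read from the same arrays. Wild type 1 and wild type 3 had the highest Hba-x and Hbb-y, and knockout 1 and knockout 3 the lowest.

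Adult chains were among the brightest transcripts of the arrays, and their probe sets disagreed in direction. The 3 tested alpha probe sets name both Hba-a1 and Hba-a2, and the tested beta probe set names Hbb-b1, Hbb-b2, Hbb-bs and Hbb-bt, so none of them can be given to 1 gene. Between 102 and 203 of 45037 probe sets were brighter than each by mean level. Their intensities came to between 43.7% and 72.5% of the highest intensity on the same array.

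**Figure D2:**
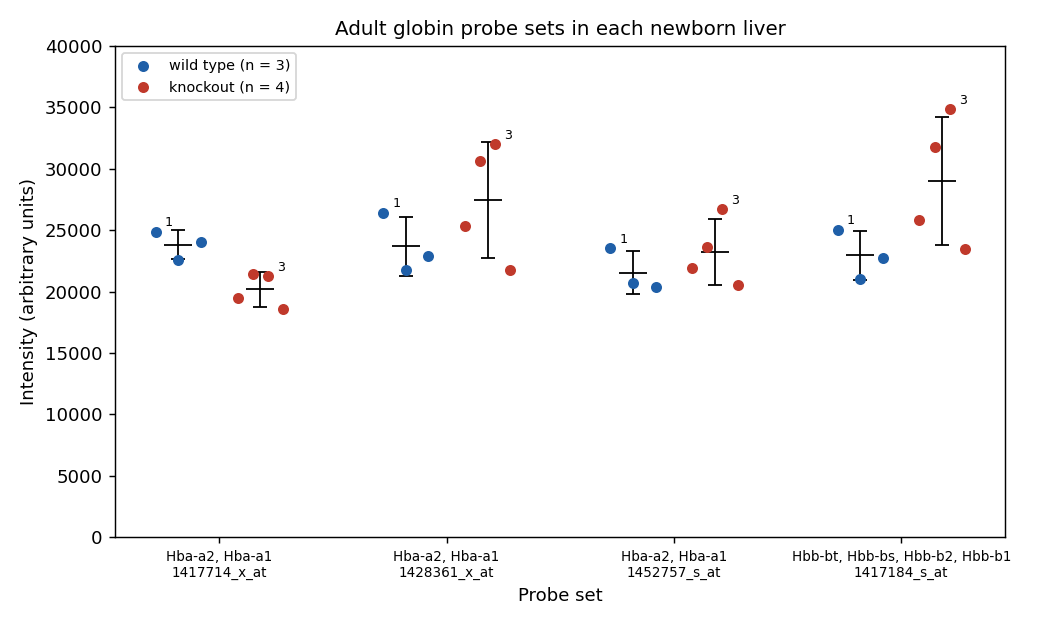
Intensity (linear axis from 0) of the 4 tested adult globin probe sets in each liver, wild type in blue and knockout in red, with the mean and SD of each group and the numbers 1 and 3 marking wild type 1 and knockout 3. One alpha probe set was lower in all knockout livers, at 18555 to 21465 against 22577 to 24859, while the others overlapped between groups.

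The beta probe set (1417184_s_at) read 25034, 21025 and 22769 in wild type livers and 25848, 31782, 34830 and 23494 in knockout livers. It lay above every wild type liver in 3 of 4 knockout livers. Its means were 22943 ± 2011 and 28989 ± 5228 (SD, n = 3 and 4). The log2 fold change was 0.32 ± 0.14 (95% interval 0.02 to 0.63, adjusted p = 0.206), and 0.39 without wild type 1.

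Of the alpha probe sets, 1428361_x_at read 26405, 21755 and 22884 in wild type and 25332, 30660, 32006 and 21777 in knockout livers, with a log2 fold change of 0.20 ± 0.14 (adjusted p = 0.432). Probe set 1452757_s_at read 23535, 20685 and 20395 in wild type and 21948, 23627, 26726 and 20573 in knockout livers, at 0.10 ± 0.11 (adjusted p = 0.621). In both, knockout 3 was highest and the groups overlapped. By contrast, 1417714_x_at read 24859, 22577 and 24054 in wild type and 19444, 21465, 21233 and 18555 in knockout livers. All 4 knockout livers lay below all wild type livers there, as in 11.8% of all tested probe sets (21.1% did not overlap in either direction, 9.4% higher in knockout), and the log2 fold change was -0.24 ± 0.09 (adjusted p = 0.155). The direction of each of these 4 probe sets was the same under equal medians and quantile normalization.

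Over the livers, the beta probe set and 1428361_x_at had r = 0.96, although they read chains of different chromosomes. Both alpha probe sets 1428361_x_at and 1417714_x_at name the same genes, yet had r = 0.06. Probe set 1417714_x_at was highest in wild type 1 and wild type 3, as were Hba-x and Hbb-y, and had r = 0.61 with Hba-x and 0.66 with the brightest Hbb-y probe set, or 0.33 and 0.38 without wild type 1. Among the 250 brightest probe sets, which include these 4, the median log2 fold change was -0.04 and 3 passed the test. Another alpha probe set (1453574_at) names Hba-a1 alone and was dim, at 12.8, 6.8 and 53.5 in wild type and 82.3, 66.2, 66.2 and 42.4 in knockout livers. It was not tested, and 29727 probe sets were brighter by mean level.

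Other globins from the fixed list gave little more. Hbb-b2 was at 2553 ± 480 in wild type and 1965 ± 578 in knockout livers by its tested probe set (log2 fold change -0.41 ± 0.25, adjusted p = 0.363), though C57BL/6J mice do not carry that gene. Its log2 fold change was -0.19 without knockout 4 and -0.56 without wild type 1. Cygb, cytoglobin, was at -0.04 ± 0.18 (adjusted p = 0.922), and this sign turned under other scalings. Of 10 genes in that list 2 were tested. Mb, Ngb and Hba-a2 had probe sets below the filter, and the other 5 had no probe set of their own symbol.

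Set against the adult chain of the same cluster within each array, the embryonic chains were again lower on average in knockout livers. For Hba-x and Hbb-y this mostly repeats their own values and adds no separate support. The adult probe sets used had log2 SDs within groups of 0.13 to 0.26, against 0.99 to 1.95 for Hba-x and Hbb-y. The log2 level of Hbb-y minus that of the beta probe set was -2.55, -5.90 and -5.35 in wild type 1 to 3. In knockout 1 to 4 it was -7.64, -6.63, -8.57 and -5.96. Every knockout value lay below every wild type value, although knockout 4 and wild type 2 were close. Hbb-y alone overlapped in these livers, and the beta probe set was higher in knockout 4 (23494) than in wild type 2 (21025). The group means differed by -2.60, or by -1.58 without wild type 1.

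The same quantity for Hba-x minus the brightest alpha probe set was -3.30, -6.84 and -5.70 in wild type and -7.65, -6.40, -10.3 and -7.01 in knockout livers. Here the groups overlapped through knockout 2, and the means differed by -2.57, or -1.58 without wild type 1. The alpha probe set used (1428361_x_at) was itself at 0.20, whereas 1417714_x_at of the same genes was at -0.24. For Hbb-bh1 minus the beta probe set it was -6.40, -7.52 and -7.72 in wild type and -8.23, -8.10, -8.19 and -7.97 in knockout livers, a difference of -0.91, or -0.50 without wild type 1. Without that liver the Hbb-bh1 probe set itself was at -0.12 and the beta probe set at 0.39. The higher beta probe set thus made up most of that smaller difference. Such a difference shows that embryonic and adult signals moved unequally, not the ratio of the chains. It is given without a test, because the genes were chosen with results of these data known.

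**Figure D3:**
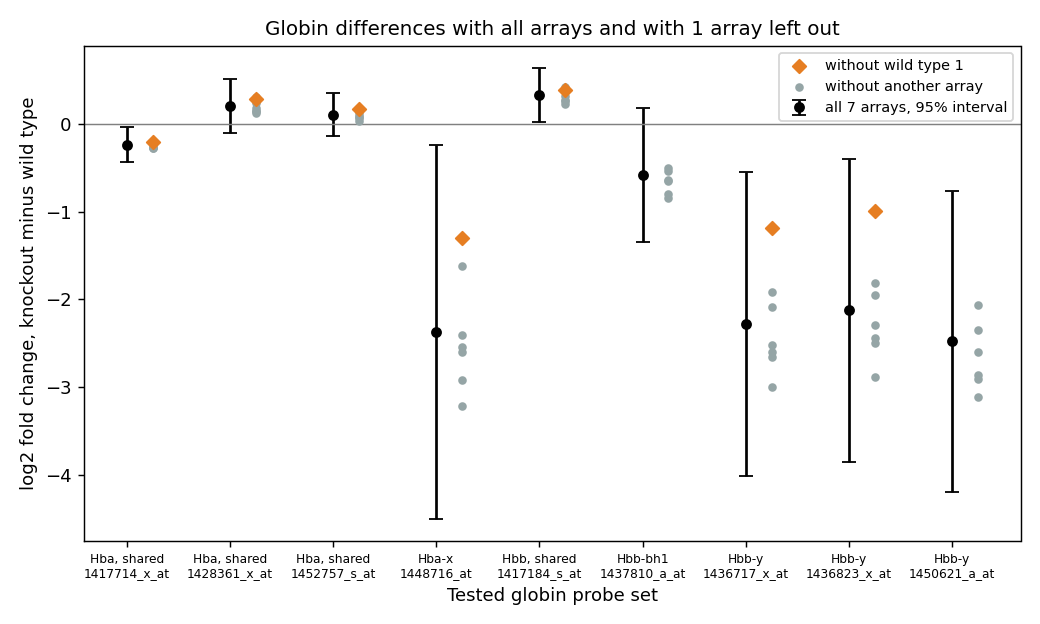
The log2 fold change, knockout minus wild type, of each tested globin probe set, with all 7 arrays and its 95% interval in black, without wild type 1 as orange diamonds, and without each other array in grey. The third Hbb-y and the Hbb-bh1 probe set have no diamond, since they were not tested without wild type 1. Leaving out wild type 1 moved Hba-x from -2.37 to -1.30 and the brightest Hbb-y from -2.28 to -1.19, and all directions stayed the same.

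Other red cell transcripts were lower in knockout livers more often than transcripts at large. Over 4 lists of red cell genes, 48 of 54 tested genes had a lower knockout mean, against 54.2% of all tested probe sets, and 8 fell while 0 rose by limma's adjusted p. That is 14.8% of the genes, against 4.24% of all tested probe sets, and the median log2 fold change was -0.33 against -0.03. The lists hold the brightest probe set of each gene, whereas the shares over all tested probe sets include dim ones. Of the 250 brightest probe sets of the arrays, 162 were lower and 88 higher in knockout. The red cell calls depended on which arrays were used: 0 of the red cell genes passed without wild type 2, without wild type 3 or without knockout 4. There were 5 without wild type 1, 4 without knockout 1, 3 without knockout 2 and 2 with arrays scaled to equal medians.

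Heme is the cofactor that globin chains carry. By their brightest probe set, all 11 tested genes of its synthesis had a lower knockout mean, with a median of -0.28. The other tested probe set of Uros, a gene of this list, had the opposite sign. Alad, the enzyme that joins aminolevulinic acid into porphobilinogen, fell from 8318 ± 831 to 5579 ± 428, by 0.57 ± 0.12 on the log2 scale (adjusted p = 0.0272). It passed in 4 of 7 fits with 1 array left out. The mitochondrial iron importer Slc25a37 was at -0.35 ± 0.10, the decarboxylase Urod at -0.36 ± 0.10 and the oxidase Cpox at -0.52 ± 0.16, and none of these passed.

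Of 15 tested genes of the red cell membrane and surface, all had a lower knockout mean, with a median of -0.47, and 4 fell. Slc4a1, the anion exchanger of the red cell, fell by 0.39 ± 0.09 (adjusted p = 0.0412). Gypc, glycophorin C, fell by 0.64 ± 0.14 and Rhag, the Rh-associated glycoprotein, by 0.49 ± 0.11. Tmod1, which caps the actin of the membrane skeleton, fell from 1455 ± 533 to 687.0 ± 131, by 1.03 ± 0.24 (adjusted p = 0.0426). Of the 7 fits with 1 array left out, Slc4a1 and Gypc passed in 2, Rhag in 1 and Tmod1 in 0.

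Of 11 tested enzymes and maturation genes, 9 had a lower knockout mean and 3 fell. Prdx2, an abundant red cell peroxidase, fell by 0.46 ± 0.10 (adjusted p = 0.0302). Xpo7, a nuclear export receptor raised late in red cell maturation, fell by 0.71 ± 0.15, and Trim10 fell by 0.68 ± 0.16. With 1 array left out, Prdx2 passed in 2 of 7 fits, Xpo7 in 3 and Trim10 in 1. Blvrb, a biliverdin reductase, was at -0.47 ± 0.12 and did not pass (adjusted p = 0.0527).

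**Figure D4:**
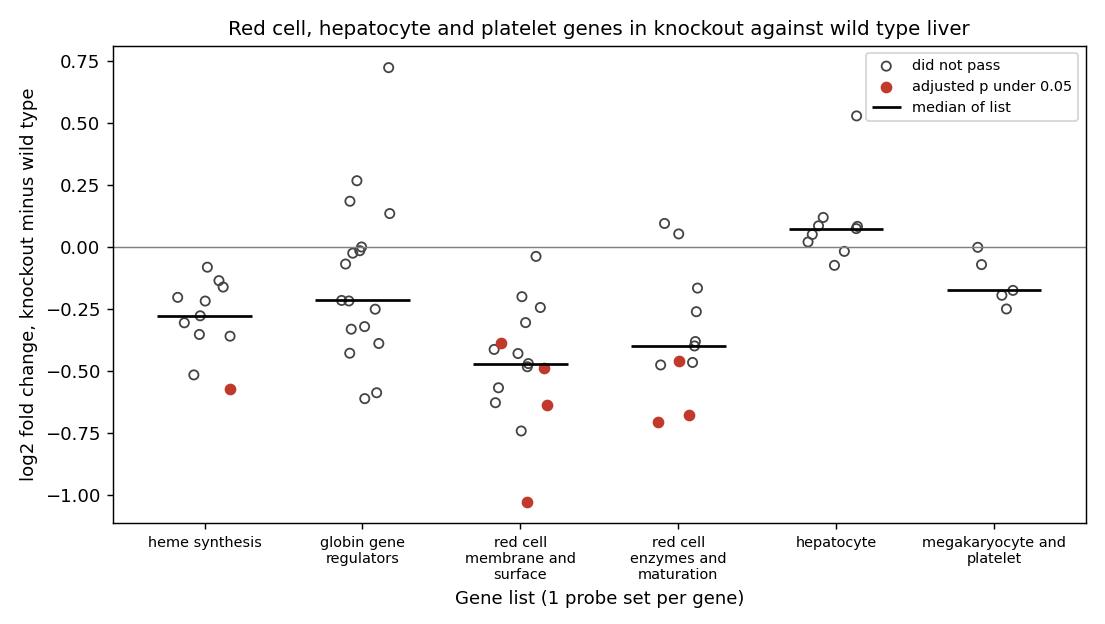
The log2 fold change, knockout minus wild type, of each tested gene in 4 red cell lists and in the hepatocyte and platelet marker lists, with filled points for adjusted p under 0.05 and bars at list medians. Medians of the red cell lists run from -0.47 to -0.22, that of the platelet markers is -0.18 and that of the hepatocyte markers is 0.07.

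Regulators of globin genes showed no call with all 7 arrays, and 1 each without wild type 1 (Klf3) and without knockout 3 (Tal1, named for that call, at -0.57 with adjusted p = 0.0299 there). Of 17 tested, 13 had a lower knockout mean, with a median of -0.22, or -0.09 without wild type 1. Nfe2, a leucine zipper factor that acts on globin enhancers, was at -0.33 ± 0.12 (adjusted p = 0.144). Sox6, a repressor of embryonic beta-like genes, read 1089, 2157 and 1817 in wild type and 1082, 906.5, 1287 and 1057 in knockout livers (log2 fold change -0.59 ± 0.23, adjusted p = 0.169). It was lower in wild type 1 than in the other wild type livers.

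Klf3 was at -0.61 ± 0.23 (adjusted p = 0.156), and at -0.94 without wild type 1, where it passed (adjusted p = 0.0213), and -0.40 without wild type 2 (adjusted p = 0.426). Nr2c1, an orphan receptor that represses embryonic globin, was at 0.72 ± 0.25 (adjusted p = 0.135), and 1 of its other tested probe sets had the opposite sign. Named outside the rule, Bcl11a, the repressor of fetal-type globins, read 749.2, 537.9 and 582.1 in wild type and 455.8, 494.2, 829.7 and 414.8 in knockout livers. Klf1, an activator of adult beta globin, was at -0.03 ± 0.14 (adjusted p = 0.940).

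Genes that clear hemoglobin and heme leaned neither way by count, with 6 higher and 6 lower of 12 tested. Their summed intensity was 124101 to 137577 in wild type and 118092 to 123322 in knockout livers, without overlap, though the closest values were near. Of single tested probe sets, 11.8% were likewise lower without overlap, and 21.1% did not overlap in either direction. Hp, Hpx, Fth1 and Hamp weighed most in the sum, with wild type means of 25305 to 30380. Lrp1, the receptor for heme bound to hemopexin among many ligands, rose from 1876 ± 368 to 3567 ± 575, by 0.93 ± 0.18 (adjusted p = 0.0245), but missed the threshold when any wild type array, knockout 2 or knockout 4 was left out (adjusted p = 0.0537 to 0.119). Hmox1, the heme oxygenase, was at -0.78 ± 0.35 (adjusted p = 0.231), Fth1, ferritin heavy chain, at -0.18 ± 0.09 and Hamp, the iron hormone hepcidin, at -0.86 ± 0.46. Hamp was at 4868 in knockout 3 against 17376 to 25249 in the other knockout livers.

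Markers of other cells differed between single livers. The summed intensity of 5 platelet and megakaryocyte markers was 36561 in wild type 1, against 21834 and 23360 in wild type 2 and 3 and 19002 to 27264 in knockout livers. All 5 were highest in wild type 1, the liver with the most embryonic globin. Pf4, platelet factor 4, read 17256 there against 7161 to 12167 in the other 6, and Ppbp, platelet basic protein, 12487 against 7479 to 9944. Itgb3, another of the 5, was nearly tied, at 3441.6 in wild type 1 and 3440.7 in knockout 1. The summed neutrophil lineage markers were also highest in wild type 1, at 146320, with 6 of 8 genes highest there. The summed macrophage markers were highest there too, at 23328, with 4 of 8, but knockout 4 was close at 23274. The summed red cell membrane list, by contrast, was lowest of the wild type livers in wild type 1, at 88728 against 103989 and 106204. Their part in the embryonic globin values was not tested.

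The summed hepatocyte markers ran from 272944 to 302935 in wild type and from 261135 to 346412 in knockout livers, highest in knockout 3. Of the 9 tested, 7 had a higher knockout mean and none passed, with Apob, a lipoprotein protein, at 0.53 ± 0.19 (adjusted p = 0.1398) and Ahsg at 0.12 ± 0.11. Neutrophil lineage markers summed to 111393 to 146320 in wild type and 87058 to 136595 in knockout livers, with Elane at -0.83 ± 0.26 and Prtn3 at -0.54 ± 0.26. Macrophage markers summed to 18817 to 23328 and 18995 to 23274, with C1qa at -0.34 ± 0.15 and Marco at 0.72 ± 0.35.

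The 5 endothelial markers summed to 12423 to 14905 in wild type and 6756 to 12089 in knockout livers, without overlap. Of single tested probe sets, 11.8% were lower without overlap and 21.1% did not overlap in either direction. Stab2 at -0.51 ± 0.17 and Lyve1 at -0.71 ± 0.25 did not pass. B lineage markers summed to 1713 to 2637 and 1752 to 3267, with Cd79a at 0.51 ± 0.25 and Cd79b at 0.37 ± 0.24. Blood progenitor markers summed to 1099 to 1522 and 1128 to 1650, with Kit at -0.13 ± 0.18 and Cd34 at 0.15 ± 0.30. The 3 T cell markers with a probe set summed to 93.7 to 121.8 in wild type and 46.0 to 79.3 in knockout livers, with none above the filter. A lower knockout mean was thus not particular to red cell lists. It was found in 5 of 5 platelet, 7 of 8 neutrophil, 6 of 8 macrophage and 5 of 5 endothelial markers. The endothelial median was -0.41. All 5 platelet and 6 of 8 neutrophil markers were highest in wild type 1, against 4 of 8 macrophage and 0 of 5 endothelial. Without that liver Ppbp was at 0.0093 and Pf4 at 0.0234. A lower knockout mean was also found in 2 of 3 progenitor, 1 of 5 B lineage and 2 of 9 hepatocyte markers, and no marker passed.

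The genes most like a globin over the 7 livers were sought among 19576 probe sets with 1 symbol. For the beta probe set the 5 with the highest Pearson's r were Fads3 (0.99), Thnsl2 (0.98), Sec61a1 (0.98), Uroc1 (0.97) and Hes6 (0.97). None of these was on the lists above. For the brightest Hbb-bh1 probe set they were Rbm39 (0.99), Thoc3 (0.98), Glipr2 (0.98), Xk (0.97) and Champ1 (0.97), and without wild type 1 the values were 0.71 to 0.94. Xk encodes a red cell surface protein, at 278.7 in wild type 1 and 147.1 to 197.5 in the other livers.

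For Hbb-y and Hba-x, sought after their values were seen, the closest were Ppfibp1 (0.99) and Snhg5 (0.99), and Ankrd11 (0.996) and Tmem138 (0.99). Their levels spanned less than those of the globins, with Snhg5 at 1997 in wild type 1 and 822.4 to 1256 in the other livers. Such values are the highest of many over 7 points and describe these arrays.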

How the data were processed

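The authors deposited linear intensities, with 1 value for every probe set of an array. Per the submitters' processing notes GCOS was used (no version), and how probes were summarised is unknown here. The mean of each array, with its extreme values trimmed, lay between 499.4 and 500.3, so arrays had been scaled to 1 target, which hides any change of total RNA. Of 45101 probe sets 64 were controls and were dropped; log2(intensity + 16) was used without further scaling, and those whose mean exceeded the median over probe sets were kept. The groups were compared in R 4.3.3 by limma 3.58.1 (lmFit, eBayes with a trend, two-sided, no covariates), with a call at p under 0.05 after Benjamini-Hochberg adjustment over all 22518 tested. Groups and replicate numbers came from sample titles, and each array stood for 1 liver. Arrays of one liver were not repeated, so p-values measure the spread between arrays. In that spread, differences between animals, RNA preparations and arrays cannot be told apart. Lists used the brightest tested probe set of each gene. Symbols came from the platform annotation: 34945 non-control probe sets had 1 symbol, 932 several and 9160 none.

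Genes named were all member probe sets, up to 4 genes of smallest p and any called in each red cell, clearance or other globin list, up to 2 in each marker list, and the 5 likest to the Hbb-b1 and Hbb-bh1 probe sets. Members and lists were chosen with earlier results of these data known. Simulated data for knockout minus wild type (22518 probe sets) were used to test the fit, which recovered 2% of probe sets changed 1.5-fold. It recovered 54% of 2-fold changes, with 92% for 4-fold ones. False calls made up 6.77%. Changed probe sets were drawn at random from all tested ones. The recovered shares therefore do not hold for Hba-x and Hbb-y, whose log2 SDs within groups were 0.87 to 1.99. Alternatives covered the offset, scaling, filter, variance trend, each array left out, a replicate block, shared probe sets and the probe set chosen. Plots were drawn with matplotlib 3.10.9.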

Additional observations from a re-analysis of the deposited data

Results flagged for a closer look

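Among 51 results checked over the 4 knockout livers, Alad had 1 liver far from the others. Knockout 2 was at 6217 against 5310 to 5425 in the other 3, and its gap made up 0.865 of the group's range on the log2 scale, above Dixon's critical value at 95%. Chance flags about 1 in 20 such groups.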

How the results depend on the processing

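No globin probe set passed in any of the 15 alternatives run. All 7 embryonic probe sets kept a lower knockout mean under each offset, scaling and left-out array, and with the replicate block. The filter, the variance trend and the limit to probe sets with 1 symbol leave these means unchanged, so they could not alter that direction. The embryonic minus adult difference without 1 array ran from -3.35 to -1.58 for Hba-x, from -1.16 to -0.50 for Hbb-bh1 and from -3.25 to -1.58 for Hbb-y. For Hbb-bh1 it was -1.42 when the probe sets of each chain were averaged. All probe sets called were 955, and 127 to 1006 without 1 array, 473 without the filter, 584 with eBayes without a trend and 351 with the replicate block. Arrays scaled to equal medians gave 759, with 71.3% of calls higher against 55.4%. Red cell genes called were 8, and 0 to 10 without 1 array, 2 with equal medians, 0 without the filter, 0 with eBayes without a trend and 0 with the replicate block. The log2 fold change of Cygb turned to 0.0184 with equal medians and 0.0103 with quantile normalization. Without 1 array it ran from -0.142 to 0.0057 for Cygb, -0.323 to 0.0093 for Ppbp, -0.398 to 0.0234 for Pf4 (both highest without wild type 1) and -0.10 to 0.395 for Cd34. The cause of these changes was not tested. Replicate numbers showed no pairing of the arrays. Same-numbered deviations correlated at 0.09, -0.06 and 0.06, and different-numbered ones at -0.13 to 0.12. So few arrays cannot exclude a shared litter or batch. The block used knockout 4 alone in its own level. Intensities under 50 made up 35.5% to 39.5% of each array.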
